A study of Mus musculus with 16 samples.

Results

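Ccr9 and 9 integrin genes were followed through CD4+ T cells of mice infected with the nematode Nippostrongylus brasiliensis. The 10 genes (Ccr9, Itga4, Itgb7, Itgae, Itgb1, Itgal, Itgb2, Itga6, Itgav and Itgb3) were picked by name from the 31053 genes of the count matrices. All 10 passed the filter on low counts in every comparison over all kept cells, but not in every fit on single clusters. Their UMIs (unique molecular identifiers, each counting 1 captured transcript) were summed per sample and are given as CPM, a level scaled to the UMI total of that sample without TCR genes. The host was in all cases the 4get mouse on a C57BL/6 background, an IL-4 reporter in which eGFP marks cells that have transcribed Il4. In the first experiment, IL-4eGFP+CD4+ cells were sorted from the perfused lung and the mesenteric lymph nodes (MLN) of 2 mice aged 13 weeks, 10 days after injection of 500 larvae, with 1 droplet library per organ and mouse (groups lung and MLN, n = 2). In the second, CD4+ cells, sorted as IL-4eGFP+ or as IL-4eGFP-, came from the mediastinal lymph nodes (medLN), which drain the lung, and the MLN, which drain the gut, of 2 other mice aged 10 weeks at day 10 (4 groups of gate and node, n = 2). There were no uninfected mice. The drinking water held the antibiotics neomycin and polymyxin B for the first 5 days after infection, a treatment shared by all groups. Its part in the levels was not tested.

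The perfused lung still held some cells inside blood vessels according to the study, and the sort used only CD4 and eGFP. Lungs were also cut up, digested and purified on Percoll before the sort, steps that the methods do not give for lymph nodes. Organ and tissue processing therefore cannot be told apart between lung and MLN. Each IL-4eGFP gate of the second experiment was 1 library holding 4 hashtag-labeled samples, so that gate and library cannot be told apart there. In summed samples, fewer cells of a kind and less RNA of a gene per cell cannot be told apart either, which is why the same genes were also followed within clusters of cells. Levels were not compared between the experiments, which were normalized separately, or between genes.

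CCR9 is a chemokine receptor for CCL25, a chemokine made by thymic and small intestinal epithelium, and T cells that carry it are drawn to the small intestine. Integrins are surface receptors of an alpha and a beta chain. The α4 chain (Itga4) pairs with β7 (Itgb7) to bind MAdCAM-1 on gut venules, or with β1 (Itgb1) to bind VCAM-1 and fibronectin, so that the beta chain at hand bears on where a cell can adhere. The αE chain (Itgae, CD103) pairs with β7 and binds E-cadherin of epithelium, while αL (Itgal) and β2 (Itgb2) form LFA-1, the receptor for ICAM-1 on most leukocytes. The chain α6 (Itga6) joins β1 to bind laminin, and αv (Itgav) joins β3 (Itgb3), among other beta chains, to bind vitronectin and latent TGFβ. Retinoic acid from gut dendritic cells is known to induce CCR9 and α4β7 in T cells, and TGFβ to induce αE.

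The promoters of Ccr9 and Itgb1 are shown because these 2 members differed between the nodes in both gates. Each run holds 250 bases before and 50 bases after the RefSeq transcription start on GRCm38.p6, taken from chr9:123766961-123767260 and chr8:128685404-128685703 on the plus strand, with matched motifs in capitals.
Ccr9: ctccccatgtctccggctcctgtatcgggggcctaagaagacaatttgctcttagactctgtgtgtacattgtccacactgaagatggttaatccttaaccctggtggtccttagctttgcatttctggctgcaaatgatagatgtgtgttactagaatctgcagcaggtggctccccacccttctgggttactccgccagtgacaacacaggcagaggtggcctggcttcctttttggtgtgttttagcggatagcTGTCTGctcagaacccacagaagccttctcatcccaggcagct
Itgb1: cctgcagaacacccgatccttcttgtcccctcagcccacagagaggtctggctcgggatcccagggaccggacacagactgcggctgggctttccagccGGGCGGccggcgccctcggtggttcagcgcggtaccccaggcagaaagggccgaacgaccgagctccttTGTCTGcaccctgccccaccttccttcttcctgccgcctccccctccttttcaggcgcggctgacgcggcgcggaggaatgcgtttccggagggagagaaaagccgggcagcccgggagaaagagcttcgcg
Searched on both strands were the nuclear receptor element AGGTCA, the SMAD element CAGACA, the RUNX core TGTGGT and the GC box GGGCGG. In the Ccr9 promoter, whose GC content was 51.3%, the only match was a SMAD element on the reverse strand, starting 8 bases after the transcription start. The Itgb1 promoter, with 67.3% GC, held a GC box 151 bases and a reverse SMAD element 82 bases before it. Of 32851 mouse promoters of this length, 16.3% held the nuclear receptor element, 21.04% the SMAD element, 16.8% the RUNX core and 35.7% the GC box. A letter match is a description of the window and says nothing of binding.

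Total depth over the kept cells was 2798232 to 14512767 UMIs per sample in the first experiment and 7546083 to 10636927 in the second, and 416 to 2462 cells stood behind each sample. Lung 2 and MLN 2 were the shallowest. T cell markers (Cd3e, Cd3d, Cd3g, Cd4 and Lck) summed to 3717 to 5237 CPM in every sample. The myeloid list summed to 1.79 to 2.48 CPM in lung, with 4 of its 6 genes at 0, and to 24.3 to 35.0 CPM in MLN. Cell barcodes shared between libraries numbered 8 for lung 1 and MLN 1, 4 for lung 1 and MLN 2, 1 for both MLN and 113 for both gates.

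Ccr9 was high in both organs of the first experiment and separated the nodes of the second. The lung samples had 68.7 and 44.1 CPM and the MLN samples 69.9 and 102.4. The groups did not overlap, but lung 1 and MLN 1 lay next to each other. Among IL-4eGFP+ cells Ccr9 had 11.5 and 11.8 CPM in medLN against 58.5 and 100.6 in MLN, and among IL-4eGFP- cells 4.80 and 4.92 in medLN against 13.4 and 12.1 in MLN. Both nodes of the IL-4eGFP- gate stood near or below the lowest IL-4eGFP+ sample, and in each gate both MLN samples exceeded both medLN samples. The gene spans 123678439 to 123784330 of chromosome 9 on the plus strand (GRCm38, GENCODE vM21).

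For Ccr9 the organ difference on the log2 scale, lung minus MLN, was -0.39 ± 0.24 (SE, edgeR adjusted p = 0.246), with a 95% interval from -0.92 to 0.15. Its size depended on the samples kept: without lung 2 or MLN 2, the shallowest samples, it was -0.0852 and -0.13 (edgeR adjusted p = 0.745 and 0.748), and without lung 1 or MLN 1 it was -0.88 and -0.66 (edgeR adjusted p = 0.00866 and 0.0455). It also passed without a filter on low counts, at -0.42 (edgeR adjusted p = 0.016). Between the nodes, Ccr9 fell by 2.78 on the log2 scale from MLN to medLN in IL-4eGFP+ cells (SE 0.25, edgeR adjusted p = 0.0036) and by 1.44 in IL-4eGFP- cells (SE 0.19, edgeR adjusted p = 0.00943). The first of these calls was lost without medLN 1, at -2.77 and edgeR adjusted p = 0.0522. The second was lost without a filter on low counts (edgeR adjusted p = 0.0649) and with all 8 samples in 1 fit (edgeR adjusted p = 0.223), at nearly the same difference. Ccr9 was 1.77 ± 0.19 higher on the log2 scale in IL-4eGFP+ than in IL-4eGFP- cells over both nodes (edgeR adjusted p = 1.297e-05). The node difference was not shown to differ between the gates, with an interaction of -1.33 ± 0.41 (unadjusted p = 0.00747, edgeR adjusted p = 0.471). Without MLN 1 of the IL-4eGFP+ gate this interaction was -1.68 (edgeR adjusted p = 0.00876).

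**Figure D1:**
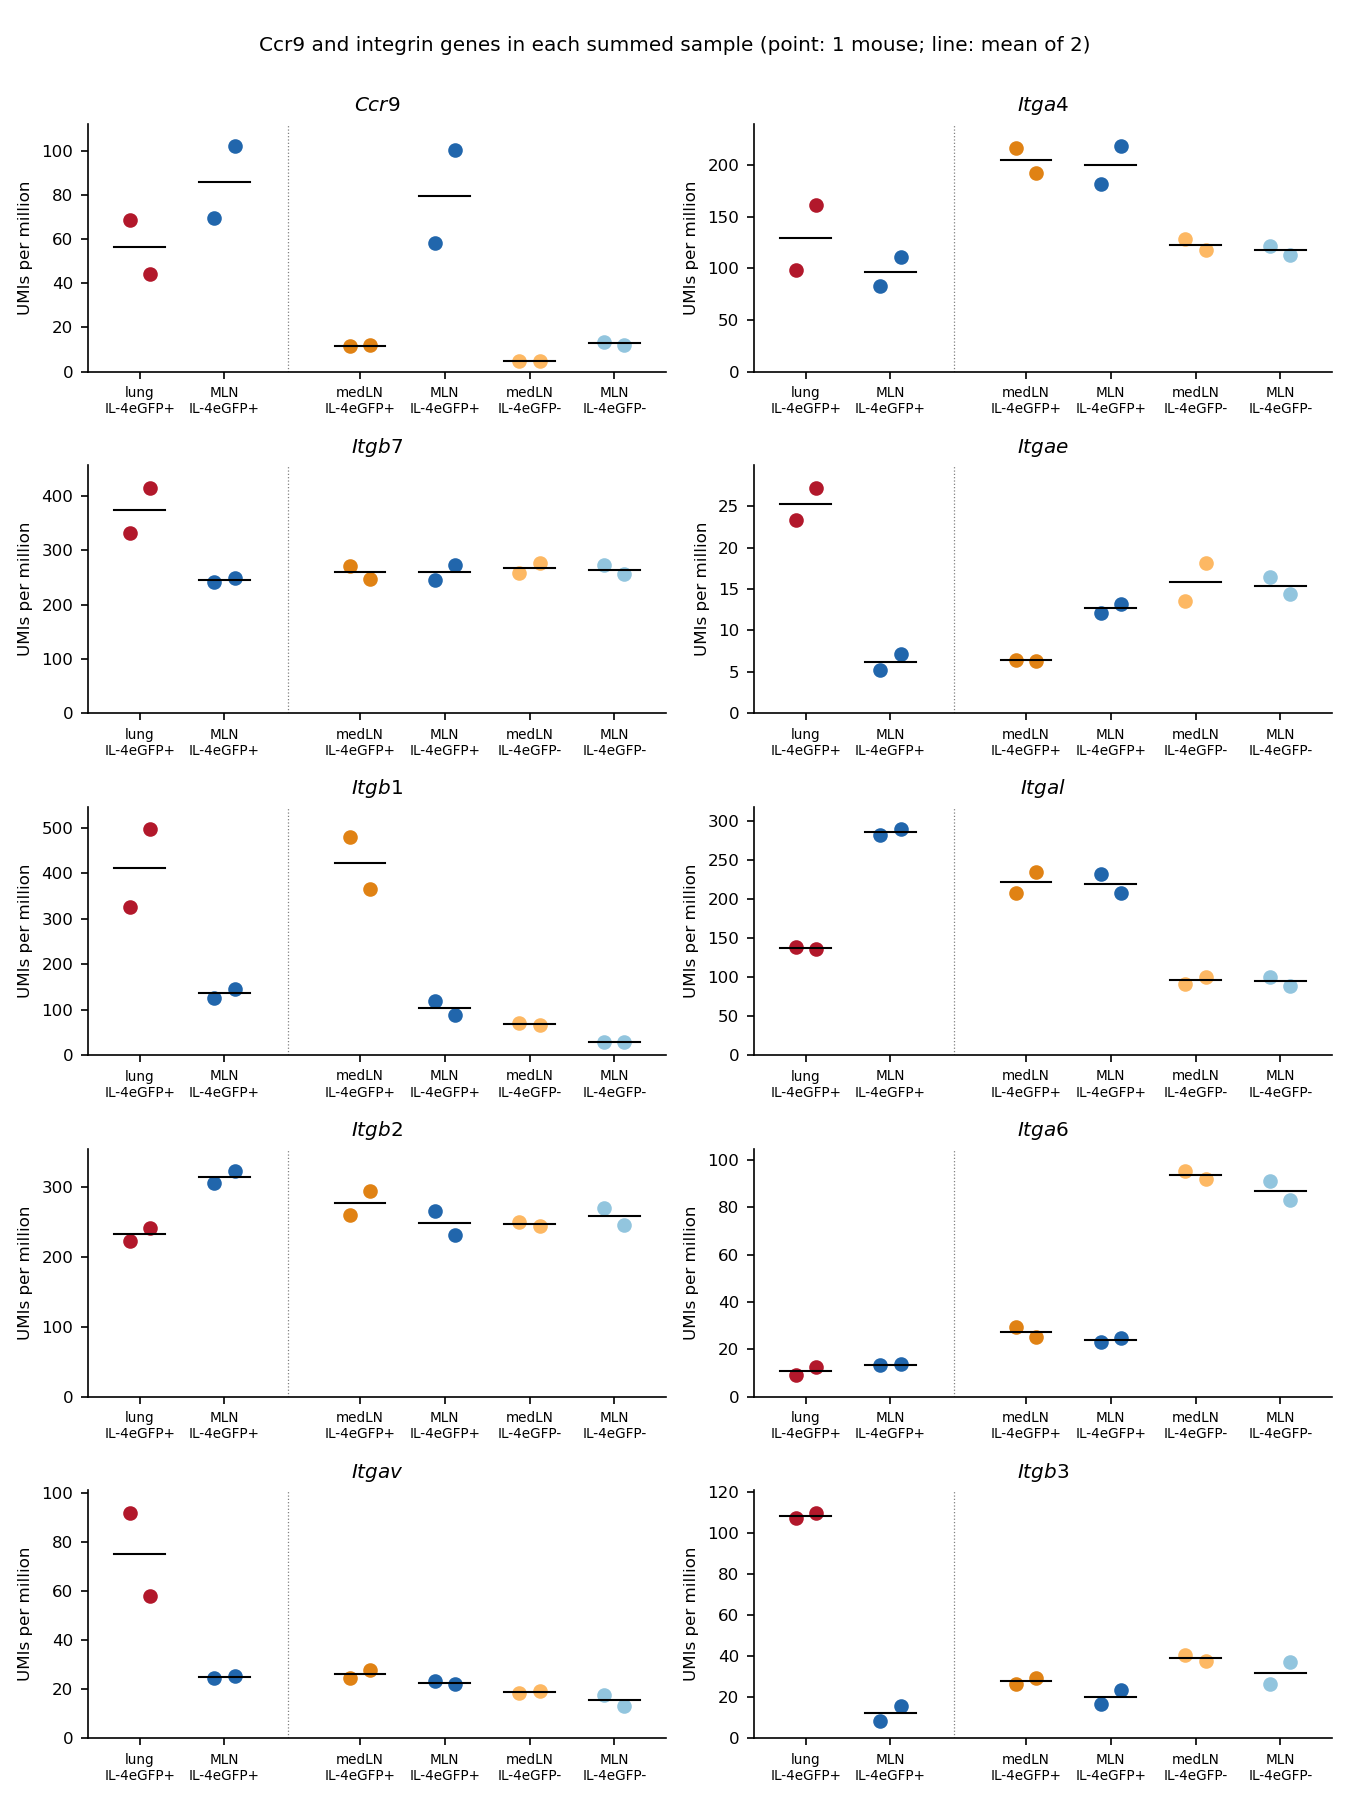
Level of each of the 10 genes in CPM (vertical axes, UMIs scaled to the sample total and starting at 0) in the 12 samples, by group on the horizontal axis, with 1 point per sample and a bar at the mean of 2. Ccr9 and Itgb1 separate medLN from MLN in opposite directions in both gates, and Itgb3, Itgav, Itgae and Itgb1 are higher in both lung samples than in both MLN samples.

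Cells with at least 1 Ccr9 UMI made up 13.1% and 9.14% of the lung samples and 11.3% and 13.7% of the MLN samples. After each cell was thinned to 1500 UMIs the shares were 7.35%, 2.43%, 6.66% and 8.27% in the same order. In the second experiment the shares were 2.33% and 2.03% in IL-4eGFP+ medLN, 9.24% and 14.3% in IL-4eGFP+ MLN, 1.06% and 1.24% in IL-4eGFP- medLN, and 2.36% and 2.63% in IL-4eGFP- MLN. In the naive T-like clusters 0.763% and 0.578% of cells held a Ccr9 UMI, at median depths of 3318 and 3849 UMIs per cell. The IL-4eGFP- medLN shares stood closest to these. The 2 clusters were themselves part of those samples, with 594 and 451 of 2167 cells in medLN 1 and 463 and 606 of 2091 in medLN 2. Whether such low shares are noise was not tested.

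Clusters of cells, made without the 10 genes and the other integrins among the variable genes and named from marker lists, showed where the Ccr9 UMIs lay. In lung the effector-like cluster, led by Cxcl2, Calca, Areg and Il1rl1, held 497 of 583 Ccr9 UMIs of lung 1 (85.3%) with 78.1% of its cells, and in lung 2 68.3% of the UMIs with 70.4% of the cells. Outside that cluster Ccr9 had 35.65 CPM in lung 1 and 35.71 in lung 2, below the 68.7 and 44.1 of the whole samples. Within the effector-like cluster only 12.1% of cells held a Ccr9 UMI. In MLN Ccr9 was concentrated by cluster. An unnamed cluster led by Deptor, Ccr9, St3gal6, Lag3 and Nmur1 held 45.9% and 40.6% of the Ccr9 UMIs of the MLN samples. It held 6.74% and 8.36% of their cells. That cluster had 393.7 CPM of Ccr9 (52.1% of cells with a UMI) and also 52.4 CPM of Itgae and 494.8 CPM of Itgb7. An innate-like/NKT-like cluster of 89 cells, led by Ccl5, Zbtb16, Xcl1 and Cxcr3, had 316.3 CPM of Ccr9 (57.3% of cells) with 1 Itgae UMI (2.38 CPM).

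In the IL-4eGFP+ gate an effector-like cluster was led by Il13, Plac8, Areg and Hdc. Its Ccr9 level was 160.8 and 66.3 CPM in medLN against 375.9 and 370.3 in MLN. Among clusters with at least 20 cells in each sample this level was the highest, except in medLN 2. There the regulatory T-like cluster had 109.6 CPM and the cluster led by Lyz2 112.8, from 16 and 13 UMIs. The effector-like cluster made up 3.45% and 4.31% of the medLN cells and 5.72% and 7.69% of the MLN cells. Fitted on that cluster alone, the node difference of Ccr9 was -1.80, and with the cluster left out it was -2.97, both past the threshold in edgeR. Proliferating-like cells had 3.50 and 4.10 CPM of Ccr9 in medLN and 36.8 and 119.5 in MLN, where MLN 2 alone gave 475 of its 1066 Ccr9 UMIs from these cells. In the IL-4eGFP- gate the regulatory T-like cluster, led by Foxp3 and Ikzf2, held 144 of 277 Ccr9 UMIs (52.0%, exact 95% interval 45.9 to 58.0%). Within it Ccr9 stood at 17.5 and 9.09 CPM in medLN and 77.3 and 62.8 in MLN, and with it left out the node difference of that gate was -0.69 (edgeR adjusted p = 0.789).

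Cells with a Ccr9 UMI were also compared with the other cells of their sample for the beta chains, after thinning. In lung 7.6% and 10% of Ccr9-positive cells (79 and 10 cells) held an Itgb1 UMI, against 29.0% and 41.8% of the others. In MLN the shares were 7.97% and 6.45% against 12.2% and 13.7%, while IL-4eGFP+ MLN 1 of the second experiment had the opposite order, with 22.1% against 12.5%. Over all 12 samples the Itgb1 share was higher in Ccr9-positive cells in 2. Itgb7 was found in 40.5% and 32.3% of Ccr9-positive MLN cells against 23.3% and 24.9% of the others, but its share was higher in Ccr9-positive cells in 7 of all 12 samples only, and in 0 of the 4 IL-4eGFP- samples (median 27.1% against 31.8%). These shares describe cells within samples and were not tested.

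Between lung and MLN 6 members changed at an edgeR adjusted p under 0.05, where 31.0% of the 10588 genes tested were called. Of these members 5 rose and 1 fell in lung, beside 17.0% and 14.0% of all genes, and the median log2 difference was 0.63 over the members and -0.01 over all genes. In IL-4eGFP+ cells 3 members passed between the nodes, where 1.28% of 11263 genes did, 1 higher and 2 lower in medLN (0.675% and 0.604% of all genes). In IL-4eGFP- cells 2 passed, where 0.178% of 10684 genes did, 1 higher and 1 lower in medLN (0.150% and 0.0281%). All 10 passed between the gates, where 62.1% of 11535 genes were called, 5 higher and 5 lower in IL-4eGFP+ cells (31.8% and 30.3%). Samples were scaled by TMM in edgeR but not in the CPM given here. Itgb2, counted as lower, had a higher mean CPM in IL-4eGFP+ samples (262.2 against 252.1). For Itgb7, also counted as lower, the mean CPM were 259.5 and 265.9. Lists of cell type markers also moved with the gate: naive T markers summed to 283.7 to 461.6 CPM in IL-4eGFP+ and 1811 to 2016 CPM in IL-4eGFP- samples, proliferation markers to 999.7 to 1258 and 100.8 to 202.0, and effector markers to 387.3 to 625.0 and 96.6 to 115.9, with Il5 and Il13 at 0 in the IL-4eGFP- samples and no other gene of these lists at 0. Their part in the gate differences was not tested. None passed for the interaction of gate and node in edgeR, where 0.156% of genes were called (0.0694% positive and 0.0867% negative), with 4 members at an unadjusted p under 0.05 and 1 called by edgeR with mouse and node as a block. In CPM, 9 members did not overlap between lung and MLN (68.8% of all genes), 6 and 5 between the nodes of the IL-4eGFP+ and IL-4eGFP- gate (43.1% and 36.8% of all genes) and 6 between the gates (57.5%).

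**Figure D2:**
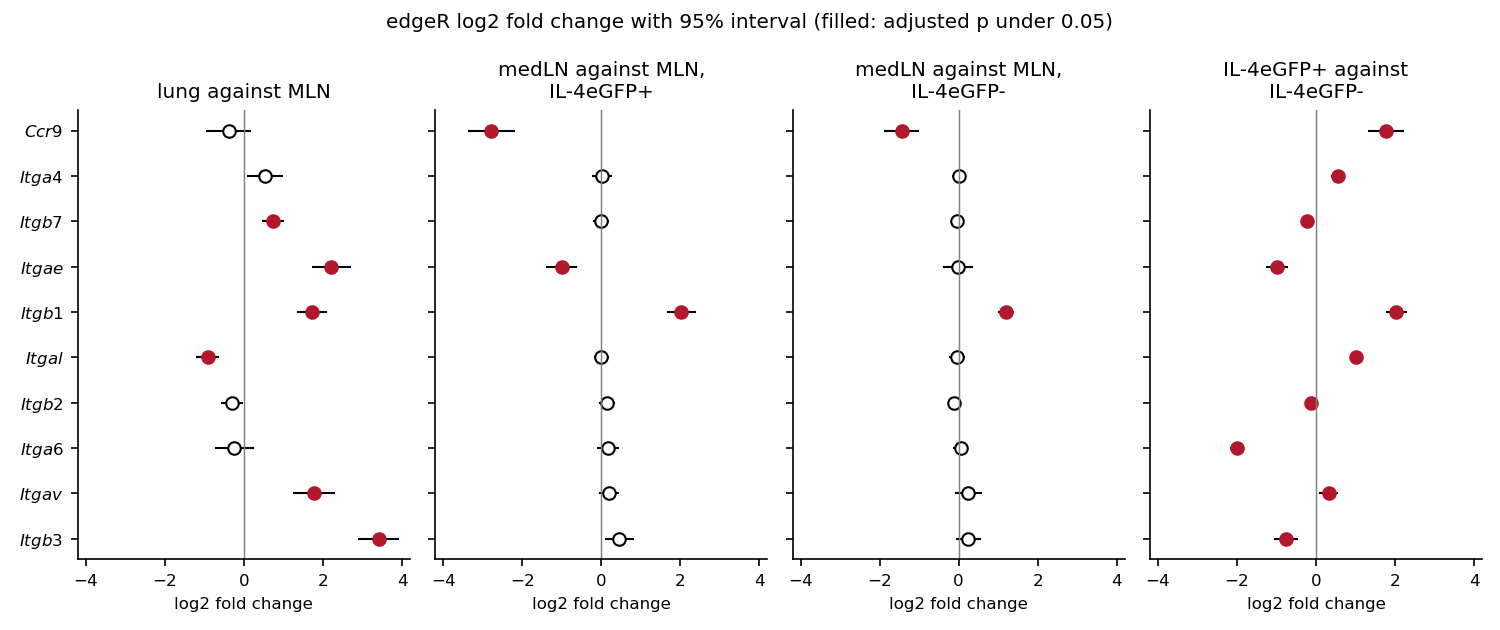
Log2 fold change of each member (points) with its 95% interval from edgeR (lines) in the organ comparison, both node comparisons and the gate comparison, with 0 marked and called members filled. Itgb1 lies to the positive side in all 4 panels, and Ccr9 lies at -2.78 and -1.44 in the node panels.

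The beta chains that pair with α4 moved apart. Itgb1 had 326.2 and 496.8 CPM in lung against 125.7 and 145.3 in MLN. In the second experiment it had 481.2 and 366.3 CPM in IL-4eGFP+ medLN, 118.4 and 88.7 in IL-4eGFP+ MLN, 71.4 and 66.9 in IL-4eGFP- medLN, and 29.2 and 28.8 in IL-4eGFP- MLN. These 4 groups stood in that order without overlap. Itgb1, at positions 128685654 to 128733200 of chromosome 8, was 1.72 ± 0.16 higher on the log2 scale in lung (edgeR adjusted p = 5.279e-05) and 1.20 ± 0.08 higher in medLN among IL-4eGFP- cells (edgeR adjusted p = 7.268e-05). In IL-4eGFP+ cells the node difference was 2.03 ± 0.15 (edgeR adjusted p = 0.00186), and between the gates it was 2.04 ± 0.11 (edgeR adjusted p = 3.385e-08). The interaction of gate and node was 0.84 ± 0.21 (edgeR adjusted p = 0.327), and 0.83 with mouse and node as a block (edgeR adjusted p = 0.0161).

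Itgb7 changed less. Its level was 332.8 and 415.4 CPM in lung against 241.7 and 249.5 in MLN, a log2 difference of 0.73 ± 0.12 (edgeR adjusted p = 0.00138). Over the 8 hashtag samples Itgb7 ranged from 245.6 to 276.5 CPM, and all 4 groups overlapped. The node differences of Itgb7 were -0.01 in IL-4eGFP+ cells, with a 95% interval from -0.19 to 0.16, and -0.04 in IL-4eGFP- cells, with one from -0.17 to 0.08. Between the gates it was -0.22 ± 0.05 (edgeR adjusted p = 0.00287) although the CPM overlapped.

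Read as a share of the Itgb1 and Itgb7 UMIs of a sample, Itgb1 gave 49.5% and 54.5% in lung and 34.2% and 36.8% in MLN. In the second experiment the share was 64.0% and 59.7% in IL-4eGFP+ medLN, 32.5% and 24.5% in IL-4eGFP+ MLN, 21.7% and 19.5% in IL-4eGFP- medLN, and 9.66% and 10.1% in IL-4eGFP- MLN. The exact 95% intervals of lung and MLN, and of medLN and MLN within a gate, did not overlap. They cover counting error only, and mice of the same group could also lie apart. The intervals were 48.2 to 50.8% and 52.5 to 56.4% for the lung samples. For IL-4eGFP+ medLN they were 62.8 to 65.1% and 58.4 to 61.0%, and for IL-4eGFP+ MLN 30.9 to 34.1% and 23.1 to 25.9%. Counts of 5′ UMIs do not give the ratio of the proteins, and only the shares of different samples are compared here.

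Itga4, the chain common to both pairs, had 98.8 and 160.9 CPM in lung and 82.6 and 110.7 in MLN, which overlapped. The log2 difference was 0.54 ± 0.19 (edgeR adjusted p = 0.059). It passed in 5 of 13 alternatives, among them mouse as a block, at 0.53 (edgeR adjusted p = 0.000646). In DESeq2 it did not pass (adjusted p = 0.0662), and over all 13 alternatives it ranged from 0.26 to 0.82. In the nodes Itga4 had 216.4, 192.6, 181.8 and 218.5 CPM in the IL-4eGFP+ samples and 128.2, 117.8, 121.5 and 113.1 in the IL-4eGFP- samples, medLN before MLN. It was 0.56 ± 0.07 higher in the IL-4eGFP+ gate (edgeR adjusted p = 3.015e-05). Between nodes it differed by 0.02 in IL-4eGFP+ cells (95% interval -0.21 to 0.25) and by 0.01 in IL-4eGFP- cells (-0.14 to 0.16).

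Within clusters the node difference of Itgb1 recurred. In the IL-4eGFP+ gate 10 clusters had at least 20 cells in each of the 4 samples, and in 9 of them both medLN samples exceeded both MLN samples. The exception was the cluster led by Lyz2 and Retnla, with 3 myeloid markers among its 10 leading genes. Regulatory T-like cells had 436.9 and 301.5 CPM of Itgb1 in medLN against 35.7 and 31.2 in MLN, from 47 and 44 against 10 and 8 UMIs. Proliferating-like cells had 440.5 and 379.8 CPM against 99.7 and 58.4, and effector-like cells 778.9 and 507.3 against 250 and 262.3. Follicular helper-like cells had 312.2 and 245.9 against 46.4 and 32.7. Ccr9 was lower in both medLN samples in 8 of the same 10 clusters, which in unnamed clusters 8 and 9 rested on 0 to 8 UMIs per sample. Other members also separated in some of these clusters. Itgb7 was higher in both medLN samples in 5 and lower in 1, and Itgb2, Itgav and Itgb3 were each higher in 4 and lower in 0. In summed samples 43.1% of all genes did not overlap between the nodes of this gate.

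In the IL-4eGFP- gate Itgb1 was higher in both medLN samples in 8 of 10 clusters and Ccr9 lower in 6. Outside the regulatory T-like cluster these orders of Ccr9 rested on 0 to 13 UMIs per sample. In summed samples 36.8% of all genes did not overlap between these nodes. The orders within clusters were not tested. For Itgb1 the nodes overlapped in 1 of the 2 naive T-like clusters and in unnamed cluster 4. The latter had 25.5 and 22.8 CPM of Itgb1 in medLN and 31.5 and 24.8 in MLN. In both naive T-like clusters Itgb1 stood between 15.4 and 22.5 CPM in every sample of both nodes. Fitted on the naive T-like clusters alone the node difference of Itgb1 was 0.11 (edgeR adjusted p = 0.995), against 1.20 over all cells of the gate. Regulatory T-like cells of this gate had 105.9 and 114.1 CPM in medLN and 46.2 and 39.1 in MLN. An unnamed cluster led by S100a6, Ccr2, S100a4 and Itgb1 had 490.1 and 667.6 CPM in medLN against 209.0 and 298.2 in MLN. It made up 3.18% and 2.77% of the medLN cells and 1.73% and 1.71% of the MLN cells. How far shares of clusters and levels within them each enter the summed difference was not tested.

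**Figure D3:**
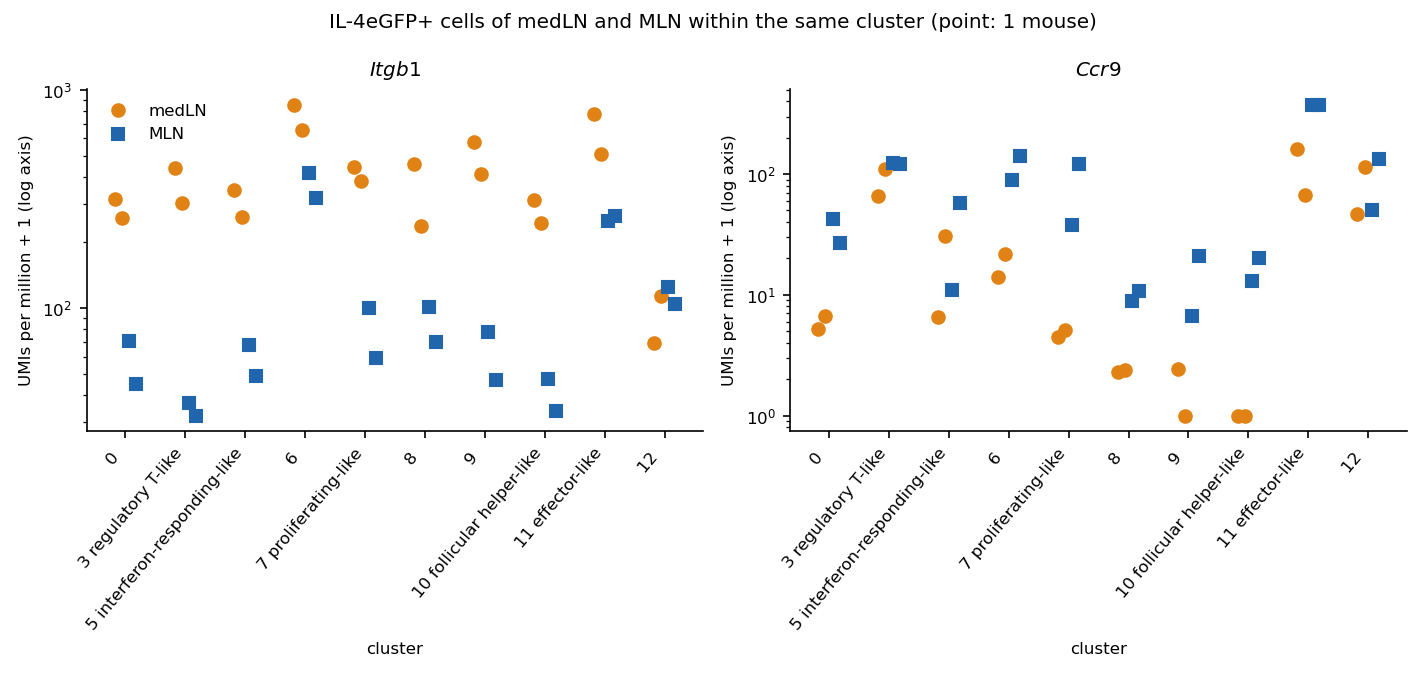
Itgb1 (left) and Ccr9 (right) as CPM + 1 (log axes) within each IL-4eGFP+ cluster that had at least 20 cells in every sample (horizontal axis, by cluster number and name), with 1 point per mouse and node. The medLN circles of Itgb1 lie above the MLN squares in 9 of 10 clusters, and those of Ccr9 lie below in 8 of 10.

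Itgae, the αE chain, was a member whose direction depended on which cells were counted. It had 23.3 and 27.2 CPM in lung against 5.26 and 7.19 in MLN, a log2 difference of 2.21 ± 0.21 (edgeR adjusted p = 4.937e-05). Foxp3 itself had 1.53 and 2.51 CPM in lung and 0.762 and 0.898 in MLN. The whole regulatory T list (Foxp3, Ikzf2, Ctla4, Ikzf4 and Il2ra) summed to 544.8 to 567.6 CPM in lung and 151.1 to 180.4 in MLN. Most of the lung sum was Ctla4, at 451.7 and 443.4 CPM against 97.6 and 73.4 in MLN. Ikzf2 went the other way, with 16.6 and 26.9 CPM in lung against 65.2 and 64.5. The part of regulatory T cells in the organ difference of Itgae was not tested. In the nodes Itgae had 6.44 and 6.35 CPM in IL-4eGFP+ medLN, 12.1 and 13.2 in IL-4eGFP+ MLN, 13.5 and 18.1 in IL-4eGFP- medLN, and 16.4 and 14.4 in IL-4eGFP- MLN. The IL-4eGFP+ medLN samples were the lowest. The IL-4eGFP+ MLN samples lay above them and below every IL-4eGFP- sample, narrowly at 13.2 against 13.5 CPM, and both nodes of the IL-4eGFP- gate overlapped. The IL-4eGFP+ node difference was -0.998 ± 0.16 (edgeR adjusted p = 0.0306). This call held in 6 of 14 alternatives, with adjusted p from 0.0128 to 0.735 over all 14, and was lost, among others, under DESeq2 (adjusted p = 0.0847), after thinning (-0.80, edgeR adjusted p = 0.246) and without medLN 1, medLN 2 or MLN 2 (edgeR adjusted p = 0.165, 0.185 and 0.0972). In the IL-4eGFP- gate it was -0.02, with a 95% interval from -0.37 to 0.33.

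Between the gates Itgae was lower in IL-4eGFP+ cells, at -0.98 ± 0.11 on the log2 scale (edgeR adjusted p = 2.385e-05). The regulatory T-like cluster held 423 of the 485 Itgae UMIs of the IL-4eGFP- gate (87.2%, exact 95% interval 83.9 to 90.1%) in 1189 of its 8674 cells, and 161 of 372 in the IL-4eGFP+ gate (43.3%, 38.2 to 48.5%) in 250 of 8074 cells. This cluster made up 1.94% to 4.12% of the IL-4eGFP+ samples and 12.6% to 16.1% of the IL-4eGFP- samples. With the cluster and all cells with a Foxp3 UMI left out, the gate difference of Itgae turned to 2.14 (edgeR adjusted p = 7.04e-05). In the cells outside the cluster Itgae had 4.81, 4.404, 5.85 and 7.06 CPM in the IL-4eGFP+ samples against 2.92, 2.91, 2.09 and 1.14 in the IL-4eGFP- samples. Unlike that fit, these levels leave out the cluster only and not other cells with a Foxp3 UMI. Few UMIs stood behind the IL-4eGFP- values, since the cluster held 84 of 104, 117 of 136, 117 of 132 and 105 of 113 Itgae UMIs.

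**Figure D4:**
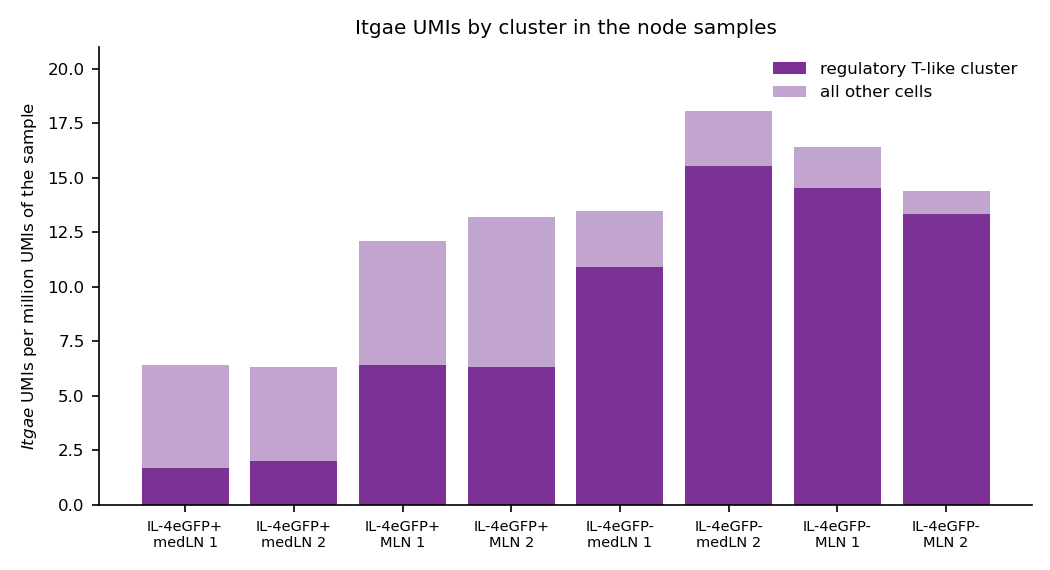
Itgae in CPM of each of the 8 hashtag samples (stacked bars starting at 0), split into UMIs from the regulatory T-like cluster and from all other cells. The cluster gives most of each IL-4eGFP- bar, and the part from other cells is larger in every IL-4eGFP+ bar than in every IL-4eGFP- bar.

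Inside the regulatory T-like cluster Itgae was also compared by node. In the IL-4eGFP+ gate the cluster had 148.7 and 130.2 CPM in medLN and 210.8 and 261.5 in MLN, from 16 to 67 UMIs a sample. In the IL-4eGFP- gate it had 97.7 and 118.1 in medLN and 135.0 and 124.5 in MLN. Both medLN samples stood below both MLN samples in each gate. In the IL-4eGFP- gate this was narrow, with 117 UMIs behind the 118.1 CPM and 105 behind the 124.5. These orders were not tested. In summed samples 43.1% and 36.8% of all genes did not overlap between the nodes of the IL-4eGFP+ and IL-4eGFP- gate. In the first experiment Itgae was highest in the Ccr9-rich unnamed cluster of MLN cells (52.4 CPM) and in the effector-like cluster of lung cells (30.7 CPM), and at 0 among the 190 cells of the cluster led by Padi4, Sostdc1 and Ascl2.

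Itgal and Itgb2, the LFA-1 chains, went the other way from Itgb1 between organs. Itgal had 137.7 and 135.5 CPM in lung against 280.9 and 288.6 in MLN, and fell by 0.92 on the log2 scale (SE 0.12, edgeR adjusted p = 0.000332). It was the only member that passed on the low side in lung. Itgb2 had 222.6 and 240.9 CPM in lung against 305.7 and 322.0 in MLN, a difference of -0.31 ± 0.11 (edgeR adjusted p = 0.0604). This difference passed in 3 of 13 alternatives, among them mouse as a block, at -0.30 (edgeR adjusted p = 0.0293), and not in DESeq2 (adjusted p = 0.137). In the second experiment Itgal had 207.7, 234.7, 232.0 and 206.7 CPM in the IL-4eGFP+ samples against 90.7, 100.1, 100.2 and 88.8 in the IL-4eGFP- samples. The gates were thus fully apart for Itgal, by 1.02 ± 0.06 (edgeR adjusted p = 5.152e-08), while the nodes differed by 0.00 (95% interval -0.17 to 0.17) and -0.04 (-0.21 to 0.13). Itgb2 ranged from 230.1 to 293.8 CPM over the 8 samples with overlapping gates. Its gate difference of -0.14 ± 0.05 (edgeR adjusted p = 0.0354) was called in 9 of 16 alternatives. Among others, it did not hold in DESeq2 (adjusted p = 0.0764) and stood at 0.068 in cells thinned to equal depth.

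Itga6, the laminin-binding chain, was the member that most clearly marked IL-4eGFP- cells. It had 95.3, 91.8, 90.9 and 83.0 CPM in the IL-4eGFP- samples against 29.6, 25.3, 23.1 and 24.9 in the IL-4eGFP+ samples. The gates did not overlap, and Itga6 was lower by a log2 difference of -1.999 ± 0.06 in IL-4eGFP+ cells (edgeR adjusted p = 1.137e-09). Naive T-like cells had 101.2 and 82.8 CPM in their 2 clusters and regulatory T-like cells 123.2, against 7.69 in effector-like and 12.6 in follicular helper-like cells. The nodes differed by 0.18 in IL-4eGFP+ cells (95% interval -0.07 to 0.43) and by 0.05 in IL-4eGFP- cells (-0.11 to 0.21). In the first experiment Itga6 had 8.96 and 12.6 CPM in lung and 13.2 and 13.7 in MLN, a difference of -0.24 ± 0.21 (edgeR adjusted p = 0.417).

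Itgb3 and Itgav, whose chains form the vitronectin receptor, were higher in lung than in MLN. Itgb3 had 107.0 and 109.7 CPM in lung against 8.66 and 15.9 in MLN, a log2 difference of 3.41 ± 0.22 (edgeR adjusted p = 5.133e-06). Itgav had 92.04 and 58.1 CPM in lung against 24.4 and 25.6 in MLN, at 1.78 ± 0.23 (edgeR adjusted p = 0.000349). Itgb3 is also the beta chain of the main platelet integrin, and of the platelet list Pf4, Ppbp and Gp9 were at 0 in lung and MLN, with a sum of 0.707 to 0.717 CPM in lung and 0.416 to 0.449 in MLN.

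Effector markers moved with the organ too, since that list (7 genes, none at 0) summed to 1170 to 1955 CPM in lung and 228 to 233 in MLN. The proliferating-like cluster was the only one with at least 20 cells in every lung and MLN sample. Within it the organ differences were 2.79 for Itgb3, 2.21 for Itgav, 2.12 for Itgb1 and 0.58 for Itgb7, all past the threshold in edgeR, whereas Itgal stood at -0.54 (edgeR adjusted p = 0.0554). Itgae and Itga6 were too low to be tested there. Effector markers were not compared between the organs within that cluster, and their part in these and the other organ differences was not tested.

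In the second experiment Itgb3 had 26.5 and 29.5 CPM in IL-4eGFP+ medLN, 16.9 and 23.3 in IL-4eGFP+ MLN, 40.5 and 37.5 in IL-4eGFP- medLN, and 26.5 and 37.0 in IL-4eGFP- MLN. Itgb3 was lower in the IL-4eGFP+ gate, at -0.75 ± 0.13 (edgeR adjusted p = 0.000342), and its node differences of 0.46 ± 0.15 (edgeR adjusted p = 0.242) and 0.24 ± 0.14 (edgeR adjusted p = 0.918) did not pass. Itgb3 stood at 1.20 CPM in follicular helper-like cells. It had 65.0 CPM in the cluster led by S100a6 and Ccr2 and 69.0 in the effector-like cluster. Itgav lay between 13.1 and 27.7 CPM in all 8 samples, with a gate difference of 0.32 ± 0.09 (edgeR adjusted p = 0.0111) that did not hold in DESeq2 (adjusted p = 0.0662).

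**Figure D5:**
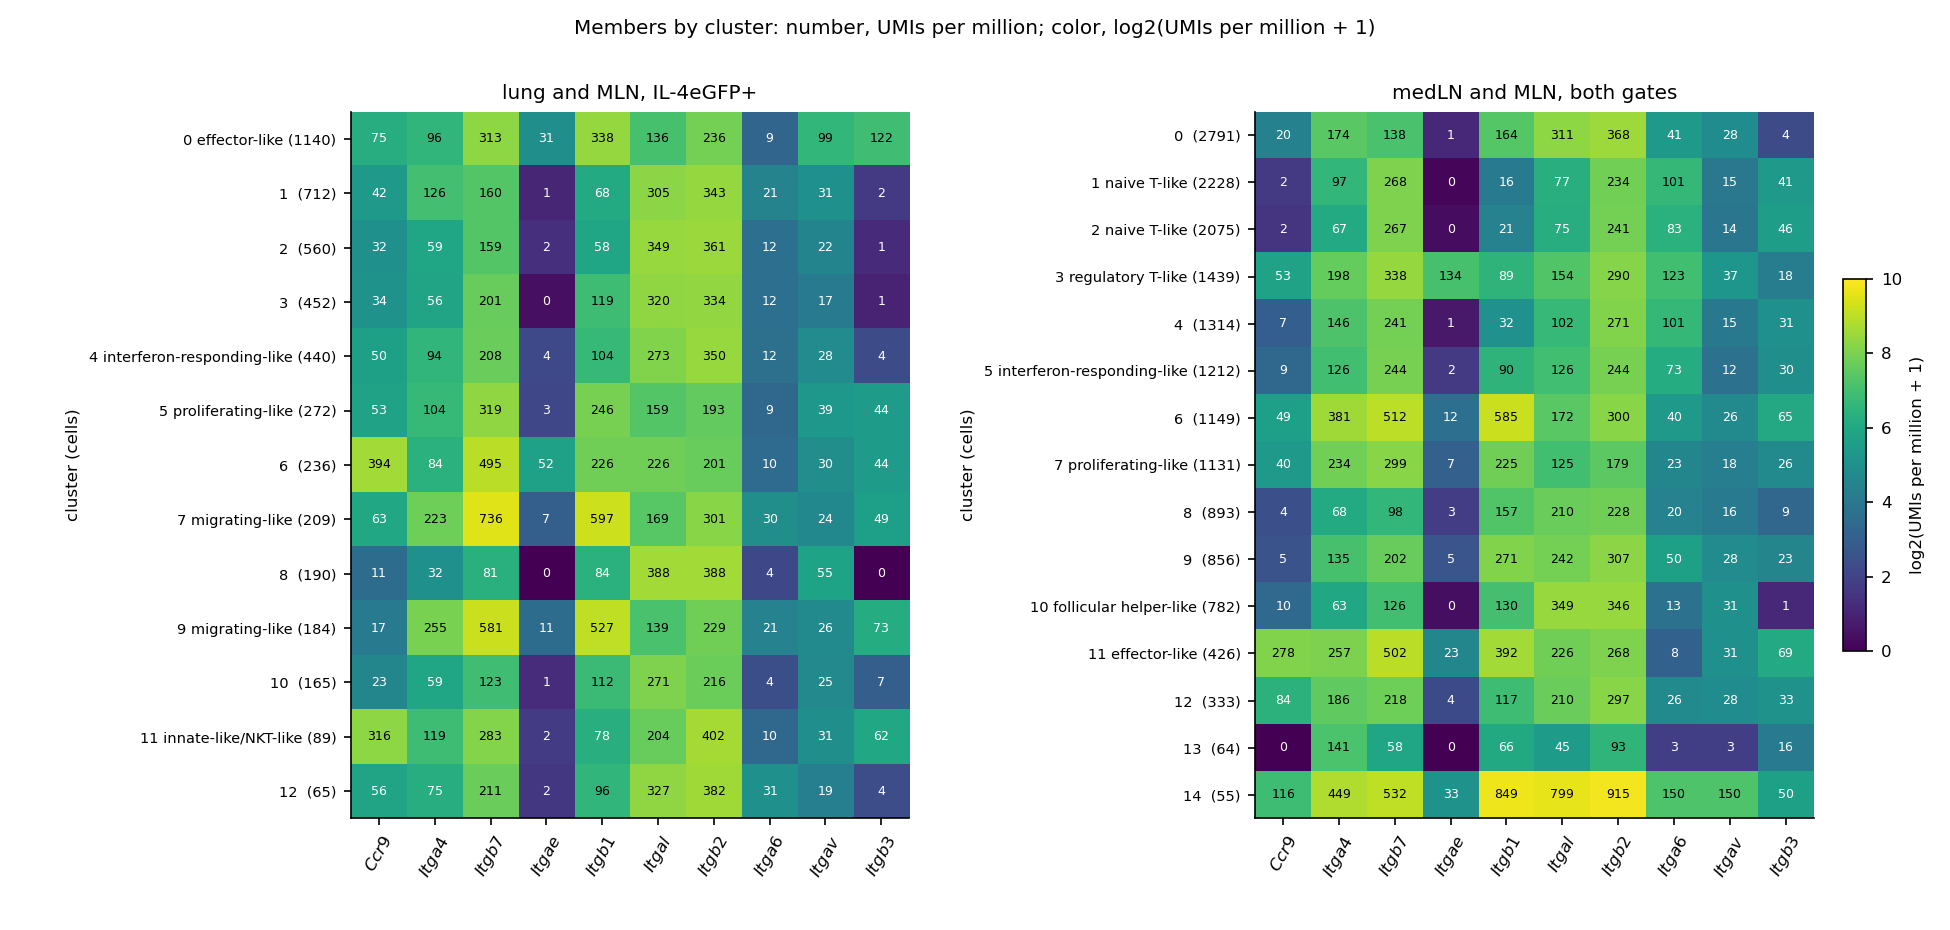
Level of the 10 genes (columns) in each cluster of both experiments (rows, by cluster number, name where one was given, and number of cells), with CPM printed and log2(CPM + 1) as color. Itgae is high in the regulatory T-like row at 134.3 CPM, Ccr9 in the row of cluster 6 of the first experiment at 393.7 CPM, and Itgb1 and Itgb7 are high together in the migrating-like rows. Cluster 14 of the nodes, 55 cells with a median of 1027 UMIs, is shallow.

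Across clusters the integrins formed recurring combinations. The migrating-like clusters, led by Klf2 and S1pr1 or by Ccr7, had 735.8 and 581.1 CPM of Itgb7, 597.2 and 527.4 of Itgb1, and 222.6 and 254.6 of Itga4. The former was made mostly of MLN cells and the latter mostly of lung cells. In the nodes the cluster led by S100a6 and Ccr2 had a like make-up, with 585.3 CPM of Itgb1, 511.8 of Itgb7 and 381.4 of Itga4. Itgb1 was itself among its leading genes. The clusters led by Sostdc1 and Padi4 were the reverse, with 81.3 CPM of Itgb7 and 387.5 of Itgal in MLN cells of the first experiment and 125.5 and 349.4 in the follicular helper-like cells of the second. Clusters are described by these levels only, without a test. The clusters led by Lyz2, each with 3 genes of the myeloid list among its 10 leading genes, had 65 and 333 cells, and the former was also led by pancreatic enzyme genes. Ccr9 was at 0 in 64 cells led by immunoglobulin genes.

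The other genes of the pathway were read from lists. Of 13 other alpha chains 3 could be tested between lung and MLN, and Itga2 (2.89 ± 0.29, edgeR adjusted p = 8.034e-05) and Itga1 (2.61 ± 0.49, edgeR adjusted p = 0.00333), both collagen-binding chains, were higher in lung. Itga2 had 11.1 and 15.05 CPM in lung and 1.80 and 2.02 in MLN. Of all genes 17.0% were called higher in lung. Of 5 other beta chains Itgb8 alone could be tested: 3 UMIs in lung stood against 58 in MLN, a ratio of 11.5 (counting interval 3.76 to 57.6) in favor of MLN. Between the nodes none of the other alpha or beta chains passed in edgeR. Between the gates Itga2 (2.54) and Itga7 (1.66) were higher and Itga5 (-2.07), the fibronectin receptor chain, lower in IL-4eGFP+ cells, of 4 alpha chains tested. Of all genes 62.1% were called between the gates. All 3 chains were low. Mean CPM in IL-4eGFP+ and IL-4eGFP- samples were 4.72 and 0.738 for Itga2, 2.83 and 0.841 for Itga7, and 0.598 and 2.18 for Itga5.

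Of 24 tested genes of integrin activation and linkage to the cytoskeleton, 7 were higher and 3 lower in lung, beside 17.0% and 14.0% of all genes. The median was 0.01 against -0.01 over all genes. Vcl (vinculin) at 2.75, Rap1b at 1.34 and Flna (filamin A) at 1.09 were higher, and Actn1 (α-actinin) at -2.07 was lower. Flna was also the only 1 of 26 to pass between the nodes in IL-4eGFP+ cells, with 258.7 and 261.2 CPM in medLN against 167.4 and 180.8 in MLN (0.57 ± 0.06, edgeR adjusted p = 0.00684). Between the gates 8 were higher and 9 lower of 25, beside 31.8% and 30.3% of all genes. Ptk2 (focal adhesion kinase, -1.93), Actn1 (-1.56), Cytip (-1.06) and Cyth1 (-0.99) were lower in IL-4eGFP+ cells.

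Of the ligands, 4 could be tested between the organs. All values are of RNA in the sorted CD4+ cells, and the tissue around them was not sampled. Icam1 was higher in lung (1.54 ± 0.26) and Icam2 lower (-1.50 ± 0.22). Cdh1, which encodes E-cadherin, had 4.36 and 5.73 CPM in lung and no UMI in either MLN, so that it was at least 29.6-fold higher in lung, against a floor of 3 UMIs over both MLN samples. Between the nodes none of the ligands passed in edgeR in either gate.

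Of 16 tested genes of retinoic acid and TGFβ input, 9 were higher and 1 lower in lung, beside 17.0% and 14.0% of all genes. The median was 0.75 against -0.01 over all genes. The TGFβ feedback genes Smad7 (3.25 ± 0.20) and Skil (2.75 ± 0.17) and the retinoic acid receptor gene Rara (2.18 ± 0.14) rose in lung, and the TGFβ co-receptor gene Tgfbr3 fell (-1.73 ± 0.16). Smad7 had 55.2 and 62.7 CPM in lung against 5.54 and 9.21 in MLN. None of the 16 passed between the nodes in either gate in edgeR. Between the gates 4 were higher and 10 lower in IL-4eGFP+ cells, beside 31.8% and 30.3% of all genes. Smad7 (-2.77), Rara (-1.95) and Rarg (-1.35) were lower, while Rxra was higher (1.58).

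Of 15 tested other homing receptors 11 were higher and 1 lower in lung, with a median of 1.15, beside 17.0% and 14.0% of all genes. Ccr8 (6.05 ± 0.24), Ccr2 (3.90 ± 0.13) and Gpr15 (2.78 ± 0.54) rose, and Cxcr5, the receptor that leads to B cell follicles, fell (-4.58 ± 0.26). In IL-4eGFP+ cells 3 of 15 were higher and 1 lower in medLN, beside 0.675% and 0.604% of all genes. Ccr7, which admits cells to lymph nodes, had 91.5 and 89.5 CPM in medLN against 55.5 and 54.6 in MLN, at 0.71 ± 0.07 (edgeR adjusted p = 0.00396). In IL-4eGFP- cells none of 16 passed in edgeR. The interaction of gate and node passed for 2 genes of the list, among them Ccr7 (0.77 ± 0.07, edgeR adjusted p = 0.00267), and for 0.156% of all genes. Between the gates 7 were higher and 5 lower, beside 31.8% and 30.3% of all genes. Cxcr6 (4.17), Ccr2 (3.30) and Cxcr5 (3.25) were higher and Ccr6 (-3.59) lower in IL-4eGFP+ cells.

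Of the 20 annotated genes within 300 kb of Ccr9, Lztfl1 lies inside the GENCODE span of Ccr9 on the opposite strand, at positions 123694416 to 123717697. The RefSeq start of the Ccr9 promoter shown above lies downstream of Lztfl1, so that the 2 genes do not overlap from that start. Lztfl1 encodes a regulator of ciliary trafficking. It had a log2 difference of -1.92 (edgeR adjusted p = 0.0011) between medLN and MLN in IL-4eGFP+ cells, where Ccr9 had -2.78, and of -0.54 (edgeR adjusted p = 0.369) in IL-4eGFP- cells. Lztfl1 differed from Ccr9 in the organ comparison, being 0.87 higher in lung (edgeR adjusted p = 0.000623). Its interaction of gate and node passed at -1.38 (edgeR adjusted p = 0.0347). How reads in the overlap of these gene models were assigned is not given in the sources used here, so a shared part of their counts was not tested.

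Farther along, the chemokine receptor gene Cxcr6 was 2.02 higher in lung (edgeR adjusted p = 2.631e-06) and stood at -0.46 in IL-4eGFP+ medLN against MLN (edgeR adjusted p = 0.0314). Ccr1 was 3.99 higher in lung (edgeR adjusted p = 4.564e-05) and Sacm1l 0.38 (edgeR adjusted p = 0.0477). Lars2, Limd1 and Fyco1 passed neither between lung and MLN nor between the nodes. Ccr3 went the other way from Ccr9, 2.84 higher in medLN among IL-4eGFP+ cells (edgeR adjusted p = 0.0157), at 3.17 and 3.595 CPM in medLN and 0.546 and 0.378 in MLN.

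Genes whose profile over the 12 samples was nearest to a member were ranked by the root mean square difference of log2(CPM + 1), centered within each experiment, over the 5804 genes whose mean reached 20 CPM. Nearest to Ccr9 were Lztfl1 (0.57), P2rx7 (0.75) and St3gal6 (0.79), and nearest to Itgb1 were Irf4 (0.47) and Atp2b4 (0.48). Itgb3 was nearest to Cish, Tmem64 and Crybg1, Itgav to Tgfb1, Tnfrsf18 and Zfand5, and Itga6 to Rab3ip, Hsd11b1 and Klhdc1. For Itgal these were Hpcal1, Ctsb and Ptpn11, for Itga4 Hras, Kpna3 and Ak3, for Itgb7 Thy1, Akap13 and Rbfa, and for Itgb2 N4bp2l2, Hnrnph3 and Ttc5. Itgae, at a mean of 13.6 CPM, was below the minimum. The distances of the genes named for Ccr9 and Itgb1 exceeded that of Tgfb1 to Itgav, which was 0.13.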

How the data were processed

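The deposited values were UMI counts per gene and cell barcode, made by the authors with Cell Ranger (2.1.1 and 3.0.1 for lung and MLN, 6.1.2 for the nodes, on mm10/GRCm38 per the submitters' processing notes), without normalization. Deposited hashtag counts and counts of UMIs per TCR contig were used only to choose cells. Whether the aggregation of both gates evened their depth is not given in the sources used here.

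Kept cells had more than 500 UMIs and 500 genes, less than 7% of mitochondrial UMIs and a novelty above 0.8, and in lung and MLN a productive TCRα and TCRβ contig. The gate of a node cell was read from its barcode suffix and its sample from HTODemux singlets (Seurat 5.3.0, quantile 0.99), which removed 1256 and 1280 doublets. UMIs were summed per sample, since cells are not replicates, and 268 TCR genes were left out. Sums were tested with edgeR 4.0.16 (filterByExpr, TMM, quasi-likelihood test) under R 4.3.3 over all genes, and p-values were adjusted after Benjamini-Hochberg and called under 0.05. The procedure was tested on simulated data. With 2 mice per group, p-values rest on a small spread.

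Alternatives were DESeq2 1.42.0, its size factors, no filter, mouse as a block, thinning to 1500 UMIs, other hashtag and TCR rules and each sample left out. Same-numbered samples are of the same mouse: lung 1 and MLN 1 shared 104 clones and lung 2 and MLN 2 shared 21, against 2 for MLN 1 and MLN 2 and 0 for the other pairs across mice, and hashtags name the mouse. Their deviations correlated at 0.0398 (lung and MLN), 0.235 and 0.117 (nodes) and 0.116 to 0.125 (gates) over genes. Clusters were made by Seurat (2000 variable genes, 15 components, resolution 0.8) and named where at least 2 markers of a list were among the 10 leading genes and at least 3 were up by over 1 on the log2 scale, a rule chosen after seeing the data. Doublets in lung and MLN were addressed only by leaving out cells with extra TCR chains, as an alternative. Intervals of shares are exact Clopper-Pearson 95% intervals (scipy 1.17.1) and cover counting error only.

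The members, lists and tests were chosen with earlier results of these data known. All members are named, with at most 4 genes per list and comparison of the greatest change among those that passed, the 3 nearest profiles per member and genes within 300 kb of Ccr9, and some of the genes this rule names are not reported here. Promoters of 5 members were found in the RefSeq table of GRCm38.p6.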

Additional observations from a re-analysis of the deposited data

Results flagged for a closer look

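The difference between the nodes itself differed between the IL-4eGFP gates, by the test of the interaction, for genes beside the members, among them 2 given here. Ccr7 had 91.5 and 89.5 CPM in medLN against 55.5 and 54.6 in MLN in the IL-4eGFP+ gate and 348.8 and 332.9 against 349.2 and 331.9 in the IL-4eGFP- gate, an interaction of 0.77 ± 0.07 on the log2 scale. Lztfl1, whose GENCODE gene model overlaps that of Ccr9, had 27.8 and 29.4 CPM in medLN against 93.2 and 122.0 in MLN in the IL-4eGFP+ gate and 12.1 and 12.9 against 16.8 and 18.2 in the IL-4eGFP- gate, an interaction of -1.38. Each gate was 1 library, so that a difference between the gates and one between the libraries cannot be told apart.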

How the results depend on the processing

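The 50 differences of members (10 genes in 5 comparisons) were recomputed 715 times: 639 kept their direction and side of the threshold, 21 lost and 15 gained a call, and 40 changed sign, among which the called values were Itgae between the gates, at 2.14 without regulatory T-like cells, and Itgb2 between the gates, at 0.068 after thinning. Settings that choose cells by cluster were added after seeing the data. The cause of these changes was not tested.

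The other sign changes were of differences that had not been called. For lung against MLN, Itgb2 was 0.064 in the proliferating-like cluster. For the IL-4eGFP+ nodes, Itgb7 was 0.145 after thinning and 0.049 without the effector-like cluster, and Itgal -0.0080 without it. For the IL-4eGFP- nodes, thinning gave 0.030 for Itgal and -0.041 for Itga6, the naive T-like clusters gave -0.16 for Itga4, and Itgae was 0.082 with another hashtag rule and 0.79 without the regulatory T-like cluster. For the interaction thinning gave 0.060 for Itgav and another hashtag rule gave -0.027 for Itga4.

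With each sample left out in turn, differences in the IL-4eGFP+ nodes ranged from -0.12 to 0.17 for Itga4, -0.098 to 0.080 for Itgb7 and -0.080 to 0.081 for Itgal. Differences in the IL-4eGFP- nodes ranged from -0.049 to 0.073 for Itga4, -0.094 to 0.0080 for Itgb7, -0.25 to 0.18 for Itgae and -0.12 to 0.032 for Itgal. Differences in the interaction ranged from -0.13 to 0.16 for Itga4, -0.059 to 0.13 for Itgb7, -0.040 to 0.13 for Itgal, -0.27 to 0.12 for Itgav and -0.071 to 0.49 for Itgb3.

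Of members called, 3 between the IL-4eGFP+ nodes became 1 to 3 with a sample left out, the 1 being without medLN 1. The 2 between the IL-4eGFP- nodes became 1 without a filter, with all 8 samples in 1 fit or without the regulatory T-like cluster, 0 in the naive T-like clusters alone and 2 to 3 with a sample left out. The interaction, with 0, gave 1 without a filter and 0 to 1 with a sample left out, the 1 being Ccr9 without IL-4eGFP+ MLN 1. Pairing by mouse, fitted as a replicate block, gave 1 member for the interaction (Itgb1) and, beside Itga4 and Itgb2 between lung and MLN, changed no other call. Lung against MLN gave 6 to 8 and the gates 9 to 10 with a sample left out. Depth limits the values with few UMIs, such as 37 Ccr9 UMIs in each IL-4eGFP- medLN sample, 32 Itgae UMIs in MLN 2 and 35 Itga6 UMIs in lung 2.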
